A study of Mus musculus with 6 samples.

Results

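The genes described here are 41 mouse genes that copy DNA in S phase or protect it while it is copied. They were chosen by name from their known roles, with earlier results of these data known. All 41 were among the 14254 genes listed in the table, all 41 passed the filter on low values, and 13997 genes were tested in all. They fall into 9 roles: origin licensing (5 genes), the replicative helicase and its loading partners (10), DNA polymerases (4), the sliding clamp and its loader (5), single-strand binding and Okazaki joining (4), nucleotide supply (4), G1/S regulators (3), copying of chromatin and DNA methylation (4) and repair (2).

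RNA was sequenced from organoids of the mouse pancreatic ductal adenocarcinoma line KPF_5.3G, which are tumour epithelial cells grown as small clusters in culture. A control short hairpin RNA (shCtrl, genotype given as WT) was carried by 3 samples and a lentiviral hairpin against Jag1 (shJag1_3, genotype given as Jag1 knockdown) by 3, so the design sets loss of Jag1, a ligand of Notch receptors, against the control in 1 line and with 1 hairpin. Both groups grew in the same medium, which held B27, nicotinamide, N-acetylcysteine and the factors EGF, Noggin, R-spondin-1, FGF-10 and gastrin. The age of the source animal and the alleles of the line are not given in the sources used here.

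Before S phase, the origin recognition complex, Cdc6 and Cdt1 load the MCM2-7 helicase on DNA, and geminin stops loading once copying has begun. Cdc45 and the GINS complex then turn the loaded helicase into an active one, the polymerases extend the new strands with the clamp PCNA, and the lagging strand is sealed piece by piece. Many of these genes are known to be transcribed at the G1/S boundary by E2F factors, so their RNA is commonly read as a mark of cycling cells. In bulk RNA, more cells in S phase and more RNA of these genes per cell cannot be told apart.

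Because promoter words are one feature the genes can share that does not depend on their level, RefSeq promoter windows (GRCm38.p6, 250 bases before to 50 after the start) were read for the 34 genes that had one. The windows of 6 genes are shown, 3 that hold an E2F-type word and 3 nucleotide-supply genes that do not. Each is written 5′ to 3′ on the gene's strand, with E2F-type words and CCAAT in capitals. Their reverse complements are in capitals too (ATTGG for CCAAT, and GCGCCAAA for the E2F-type word TTTGGCGC). Where words overlap, the capitals run together. Mcm5 lies at chr8:75109259-75109558 on the plus strand, Mcm6 at chr1:128359656-128359955 on the minus strand and Pola1 at chrX:93632106-93632405 on the minus strand. Rrm1 lies at chr7:102441445-102441744 on the plus strand, Rrm2 at chr12:24708004-24708303 on the plus strand and Tk1 at chr11:117825965-117826264 on the minus strand.
Mcm5: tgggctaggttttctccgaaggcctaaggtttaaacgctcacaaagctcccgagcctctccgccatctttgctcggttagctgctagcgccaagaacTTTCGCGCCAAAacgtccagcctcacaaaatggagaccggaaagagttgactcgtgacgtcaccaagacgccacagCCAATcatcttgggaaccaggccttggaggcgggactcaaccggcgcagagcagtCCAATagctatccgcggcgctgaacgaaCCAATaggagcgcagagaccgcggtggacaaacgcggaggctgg
Mcm6: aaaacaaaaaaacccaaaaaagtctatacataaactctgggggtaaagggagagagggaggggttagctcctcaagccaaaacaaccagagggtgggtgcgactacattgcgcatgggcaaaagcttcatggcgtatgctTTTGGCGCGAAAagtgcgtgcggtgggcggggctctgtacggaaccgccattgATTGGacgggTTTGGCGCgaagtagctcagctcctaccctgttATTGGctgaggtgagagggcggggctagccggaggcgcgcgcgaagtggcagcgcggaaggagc
Pola1: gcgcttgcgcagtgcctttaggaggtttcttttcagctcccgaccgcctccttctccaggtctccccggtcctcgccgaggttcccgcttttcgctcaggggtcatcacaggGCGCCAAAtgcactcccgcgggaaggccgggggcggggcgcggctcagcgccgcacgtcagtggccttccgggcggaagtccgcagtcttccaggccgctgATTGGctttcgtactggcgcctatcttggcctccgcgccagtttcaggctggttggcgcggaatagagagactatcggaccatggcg
Rrm1: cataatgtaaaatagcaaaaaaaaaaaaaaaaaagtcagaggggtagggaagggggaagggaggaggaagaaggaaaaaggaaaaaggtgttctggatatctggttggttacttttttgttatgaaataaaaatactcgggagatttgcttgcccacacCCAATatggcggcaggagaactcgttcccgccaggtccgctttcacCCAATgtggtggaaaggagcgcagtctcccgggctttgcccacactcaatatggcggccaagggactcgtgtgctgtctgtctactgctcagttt
Rrm2: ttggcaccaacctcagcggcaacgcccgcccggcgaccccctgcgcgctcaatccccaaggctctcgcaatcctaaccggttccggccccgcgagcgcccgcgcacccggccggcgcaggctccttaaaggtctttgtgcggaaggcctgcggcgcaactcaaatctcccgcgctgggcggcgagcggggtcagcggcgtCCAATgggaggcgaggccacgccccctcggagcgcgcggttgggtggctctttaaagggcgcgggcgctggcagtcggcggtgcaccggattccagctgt
Tk1: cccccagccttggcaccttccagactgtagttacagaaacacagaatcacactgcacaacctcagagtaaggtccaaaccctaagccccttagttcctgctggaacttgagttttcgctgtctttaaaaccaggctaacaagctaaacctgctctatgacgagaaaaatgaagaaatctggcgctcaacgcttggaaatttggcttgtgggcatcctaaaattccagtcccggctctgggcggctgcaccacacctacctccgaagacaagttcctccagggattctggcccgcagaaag

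Counting from the start site, the E2F-type words of Mcm5 began at -153 and -149 on opposite strands and overlapped, and those of Mcm6 began at -110 and -106, again overlapping, with another at -47. Pola1 held 1, at -138. The words searched on both strands were TTTCCCGC, TTTCGCGC, TTTGCCGC and TTTGGCGC. At least 1 of them stood in the window of 14 of 34 genes (41.2%), against 2.61% of all 27025 genes with a window and 4.68% of the 10169 tested genes with one. By role, 3 of 4 licensing genes and 4 of 7 helicase genes held such a word, and 0 of the 4 nucleotide-supply genes did. CCAAT was in the window of 21 of 34 genes (61.8%), against 41.1% of all genes and 43.1% of the tested genes, and in 7 of 7 helicase genes. The word TTTGAA, the core of the cell cycle homology region known from mitotic promoters, was in 4 of 34 (11.8%), against 20.2% of all genes and 14.01% of the tested genes, while 15 of the 21 mitotic genes of a comparison list with a window held it (71.4%). A match describes letters in this window and no more.

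The libraries held 22268997 to 35172593 reads, and the lowest count of any of the 41 genes in a library was 129 reads, for Fen1 in control 2. Values are normalised counts, that is reads divided by a size factor for each library, and differences are knockdown minus control in log2(normalised count + 1). Jag1 was at 412, 983 and 847 in controls 1, 2 and 3 and at 226, 321 and 557 in knockdowns 1, 2 and 3. Each knockdown was below the control of its own number, at 55.0%, 32.6% and 65.8% of it, and the groups overlapped. The log2 change of Jag1 was -1.03 (SE 0.45, limma adjusted p = 0.691, exact permutation p = 0.2 where 0.1 is the smallest possible), and -1.02 in DESeq2 with a term for the replicate number (SE 0.27, adjusted p = 0.0063). That DESeq2 call was lost without pair 2 (adjusted p = 0.788) and without pair 3 (0.0812). Of 7 epithelial and ductal markers 7 were listed, with summed levels of 171440 to 238201 in controls against 223420 to 580992 in knockdowns. Of the fibroblast markers 2 of 7 were listed, summing to 35.6 to 44.8 in controls against 28.9 to 45.5 in knockdowns, and the collagen genes were not listed. The only listed immune marker of 6 was the lysosomal gene Cd68, at 98.6, 136 and 111 in controls against 117, 988 and 400 in knockdowns, and the leukocyte marker Ptprc was not listed. The part of Cd68-expressing cells in the differences between groups was not tested. Endothelial and acinar markers were each down to 1 listed gene of 5, both at no more than 62.1 in any library, and none of 5 endocrine markers was listed.

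**Figure D1:**
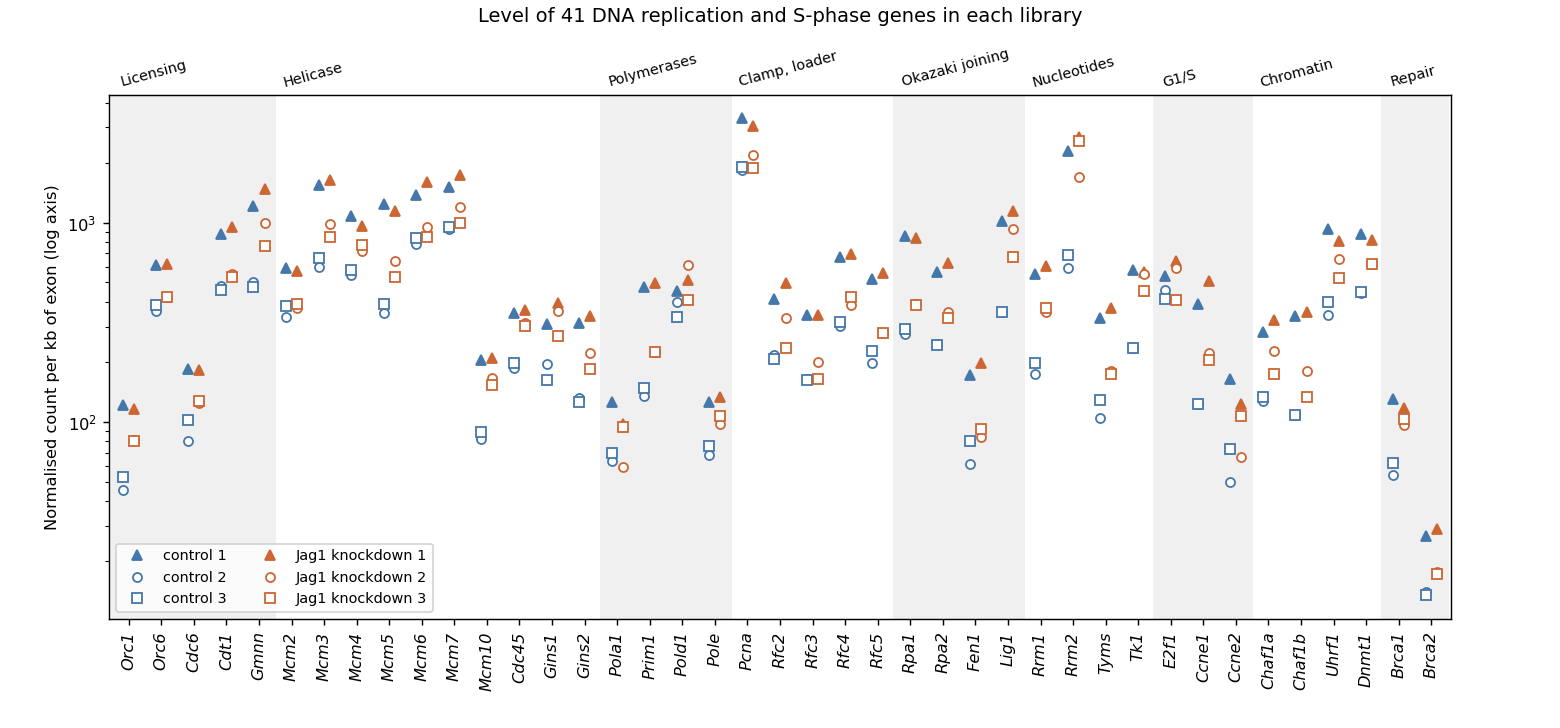
Level of each of the 41 genes in each library, as normalised count per kilobase of exon on a log axis, with genes ordered by role. Filled triangles are the replicate 1 libraries, open circles and squares replicates 2 and 3, and colour gives the group. Both replicate 1 libraries lie above the other 4 for 37 genes, and control libraries 2 and 3 are the lowest for most.

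The genes differed most between replicate numbers, not between groups. Both replicate 1 libraries lay above the other 4 libraries for 37 of the 41 genes, against 23.7% of all tested genes, and below them for 0 of 41, against 23.3%. The exceptions were Gins1, Pold1, Rrm2 and E2f1. Control 1 stood above controls 2 and 3 by a median of 1.17 on the log2 scale (range 0.30 to 1.84), and knockdown 1 above knockdowns 2 and 3 by a median of 0.66 (0.04 to 1.25). As a share of all gene reads, the 41 genes together took 0.452%, 0.186% and 0.196% in controls 1, 2 and 3 against 0.457%, 0.281% and 0.276% in knockdowns 1, 2 and 3. Mitochondrial transcripts ran the other way, with 0.595%, 1.55% and 2.03% of reads in the controls and 0.555%, 1.02% and 1.20% in the knockdowns. Their part in the result was not tested. The labels do not say what a replicate number stands for.

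Between the groups, 40 of 41 genes had a positive log2 change (97.6%), against 50.3% of all tested genes, and the median was 0.37, from -0.01 for Pola1 to 1.21 for Rrm2, against a median of 0.00 over all genes. No gene passed the test in limma, at an adjusted p threshold of 0.05. Over all genes 0.0% were called in either direction, and the adjusted p of the 41 genes ran from 0.69 to 0.996. At an unadjusted p under 0.05, limma again gave 0 of 41, against 4.62% of all genes higher and 2.68% lower, while edgeR without a replicate term gave 0 of 41, against 7.29% of all genes. At the adjusted threshold edgeR called 0 of 41 with and without a replicate term (0.0143% and 0.0% of all genes higher), and DESeq2 without it called 0 (0.725% of all genes higher and 0.524% lower). For 0 of the 41 did the 3 knockdowns all lie above the 3 controls, against 6.29% of all genes. Control 1 was above at least 1 knockdown for each of the 41 genes.

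Set against the control of the same number, the differences were small in pair 1 and larger in pairs 2 and 3. Medians over the 41 genes were 0.08, 0.62 and 0.42 on the log2 scale, against 0.01, -0.01 and 0.01 over all genes. The number of genes higher in the knockdown was 27, 40 and 39 of 41 in pairs 1, 2 and 3, where 51.8%, 49.4% and 51.0% of all genes were higher. In all 3 pairs 26 genes were higher, against 22.3% of all genes, and 0 were lower, against 19.7%. With a term for the replicate number, limma called 0 of 41 (0.0143% of all genes were called higher). At an unadjusted p under 0.05 this fit gave 16 of 41 higher, against 11.2% of all genes, and 0 lower, against 8.22%. DESeq2 with the same term called 4 of 41 higher and 0 lower, where 4.73% of all genes were called higher and 2.71% lower. These were Rrm2, Lig1, Gmnn and Rrm1. Without pair 2 DESeq2 called 0 of the 41 (0.526% of all genes higher), without pair 3 it called 0 (0.675%), and without pair 1 it called 12 higher (9.62%) and 0 lower (6.57%).

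**Figure D2:**
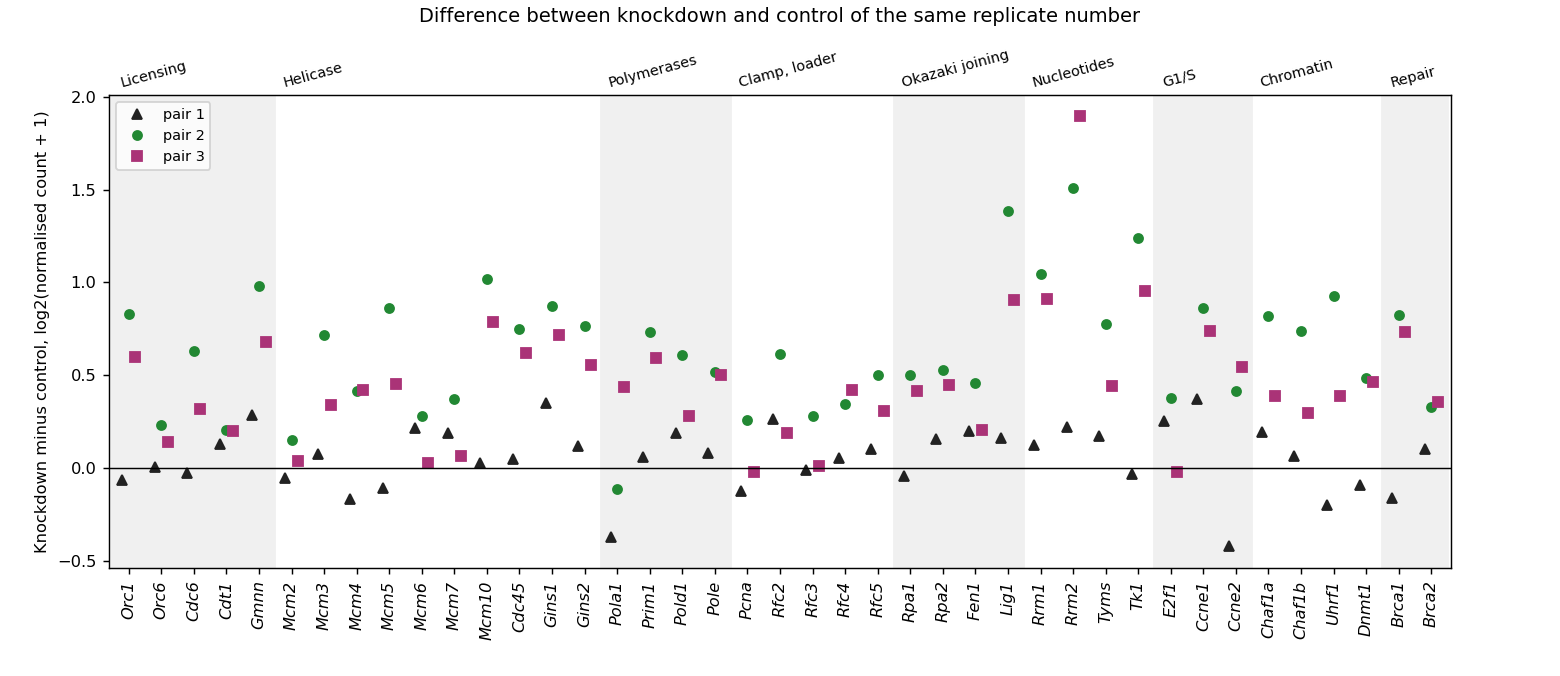
Difference between the knockdown and the control of the same replicate number for each gene, in log2(normalised count + 1), ordered by role. Pair 1 points scatter around 0 with a median of 0.08, and those of pairs 2 and 3 lie mostly above it, with medians of 0.62 and 0.42.

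Among replicates 2 and 3 alone, both knockdowns lay above both controls for 35 of 41 genes (29.8% of all genes) and below them for 0 (28.9%). limma on these 4 libraries called 9 of the 41 higher, against 6.04% of all genes, and 0 lower, against 3.57%. The 9 were Gmnn, Mcm10, Cdc45, Lig1, Rrm1, Rrm2, Tk1, Ccne1 and Brca1. This split leaves out pair 1, where these genes differed least, so it favours higher values in the knockdowns. Its counts are therefore no separate support, and the same holds for the DESeq2 fit without pair 1. With only control 1 left out, limma called Rrm2 and Tk1 higher, against 1.5% of all genes, and 0 lower, against 0.6%. The median change of the 41 was then 0.77. Control 1 lay above the mean of controls 2 and 3 for each of the 41 (0.30 to 1.84), so leaving it out raises every change. With knockdown 1 left out instead, the median moved the other way, and 11 of the 41 changes reversed their sign. Scaled on the ERCC spike-in RNAs in place of the size factors, the median of all genes moved to -0.18 and that of the 41 genes to 0.19, with 34 of 41 positive. Orc6, Cdt1, Mcm2, Mcm6, Pcna and Rfc3 turned negative under that scaling.

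The 4 genes of nucleotide supply had the highest median log2 change of the 9 roles, 0.71, with medians of 0.15, 1.14 and 0.93 in pairs 1, 2 and 3. Rrm2 (ENSMUSG00000020649, chr12:24708241-24714146, plus strand) encodes the small subunit of ribonucleotide reductase, the enzyme that makes deoxynucleotides from ribonucleotides. It was at 6348, 1646 and 1898 in controls 1, 2 and 3 and at 7407, 4693 and 7067 in knockdowns 1, 2 and 3. Control 1 alone among the controls reached the knockdown range, and knockdown 3 was nearly as high as knockdown 1. Group means were 3297 ± 2645 and 6389 ± 1479 (SD, n = 3), and the log2 change was 1.21 (SE 0.52, limma adjusted p = 0.69). In DESeq2 with the replicate term Rrm2 rose by 1.22 (SE 0.31, adjusted p = 0.00447).

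Rrm1 (ENSMUSG00000030978, chr7:102441695-102469771, plus strand), the large subunit of the same enzyme, was at 6102, 1904 and 2178 in controls against 6658, 3936 and 4093 in knockdowns. The replicate 1 libraries were close to each other, and knockdowns 2 and 3 lay well above their controls. Its log2 change was 0.69 (SE 0.47, limma adjusted p = 0.802), and it rose in DESeq2 with the replicate term (adjusted p = 0.0453). Tk1 (chr11:117815526-117826092, minus strand), the salvage thymidine kinase, was at 3018, 1215 and 1215 in controls against 2949, 2869 and 2349.6 in knockdowns. The 3 knockdowns were near one another and near control 1, with controls 2 and 3 far below. Its log2 change was 0.72 (SE 0.37), short of the threshold in limma (adjusted p = 0.725) and in DESeq2 with the replicate term (adjusted p = 0.0903). Tyms, thymidylate synthase, was at 2021, 635 and 779.8 in controls against 2274, 1089 and 1061 in knockdowns, a log2 change of 0.46 (SE 0.50, limma adjusted p = 0.88).

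In origin licensing the median log2 change was 0.31, with pair medians of 0.01, 0.63 and 0.32. Gmnn (ENSMUSG00000006715, chr13:24751845-24761923, minus strand) encodes geminin, the inhibitor of Cdt1, and was the highest of the 5 per kilobase as well as the one with the largest difference. It was at 1777, 738 and 699 in controls against 2165, 1459.8 and 1119 in knockdowns. Each knockdown was above its own control, and control 1 lay above knockdowns 2 and 3. The log2 change of Gmnn was 0.65 (SE 0.42, limma adjusted p = 0.798), and it rose in DESeq2 with the replicate term (SE 0.22, adjusted p = 0.043). Orc6, a subunit of the origin recognition complex, showed the smallest difference of the 5, at 1516, 890.1 and 950.5 in controls against 1523, 1047 and 1047 in knockdowns (log2 change 0.13, SE 0.27). Cdt1, the loading factor that geminin binds, was at 2738, 1510.2 and 1446 in controls against 2997, 1741 and 1663 in knockdowns (0.18, SE 0.34). Orc1 (0.45) and the loader Cdc6 (0.31) also lay between Gmnn and Orc6 in log2 change.

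The helicase group of 10 had a median log2 change of 0.39, and pair medians of 0.06, 0.73 and 0.44. Its largest difference was in Gins1, a subunit of the GINS complex, at 471, 296 and 247 in controls against 599.9, 544 and 407 in knockdowns. Only knockdown 3 fell inside the control range, below control 1. Gins1 had a log2 change of 0.65 (SE 0.31, limma adjusted p = 0.701, and 0.0758 in DESeq2 with the replicate term). Mcm10, which helps start the helicase, followed with 0.61 (SE 0.37), and was at 1579, 627 and 680.2 in controls against 1611, 1269 and 1175 in knockdowns. Gins2 (0.48) and Cdc45 (0.47) came next.

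Of the 6 ring subunits, Mcm2 was at 4124, 2323 and 2641 in controls against 3979, 2582 and 2713 in knockdowns, nearly the same in each pair (log2 change 0.05, SE 0.28, limma adjusted p = 0.988). Mcm7 was the most abundant helicase gene, with a mean of 1219 normalised counts per kilobase of exon, and was at 6705, 4097 and 4212 in controls against 7649, 5295 and 4404 in knockdowns (log2 change 0.21, SE 0.28). Mcm5 had the largest SE of the helicase genes, at 4924, 1407 and 1556 in controls against 4563, 2559.5 and 2133 in knockdowns (0.40, SE 0.53). Log2 changes were 0.38 for Mcm3, 0.22 for Mcm4 and 0.17 for Mcm6. Per kilobase, Mcm2 was the lowest of the 6 ring genes in all 6 libraries and Mcm7 the highest in 5, with Mcm3 highest in control 1. The highest stood 2.51 to 3.22 times above the lowest within a library.

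For the polymerases the median log2 change was 0.36. Pola1, the catalytic subunit of the polymerase that primes synthesis, was at 1107, 563 and 613 in controls against 857, 521 and 831 in knockdowns. It was lower in knockdowns 1 and 2 than in their controls and higher in knockdown 3, and its log2 change was -0.01 (SE 0.34, limma adjusted p = 0.996), the only negative one of the 41. Prim1, the primase subunit of the same complex, was at 1838, 520.3 and 572 in controls against 1914, 864 and 864 in knockdowns (0.46, SE 0.56). For Pold1, the lagging-strand polymerase, values were 2195, 1942 and 1634 in controls against 2504, 2965 and 1987 in knockdowns. Replicate 1 did not stand apart in this gene, whose log2 change was 0.36 (SE 0.21, limma adjusted p = 0.768). Pole, the leading-strand polymerase, was at 1408, 757 and 845 in controls against 1489, 1085 and 1197 in knockdowns (0.37, SE 0.28).

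The clamp and its loader had a median log2 change of 0.27. Pcna, the sliding clamp, was the most abundant of all 41 genes, with 2365 normalised counts per kilobase of exon, above 95.6% of tested genes. It was at 7988, 4391 and 4582 in controls against 7336, 5247 and 4508 in knockdowns. Only pair 2 had a higher knockdown, and the log2 change was 0.04 (SE 0.30, limma adjusted p = 0.991). Among the loader subunits Rfc2 had the largest difference, at 2614, 1370.1 and 1301 in controls against 3135, 2099 and 1482 in knockdowns (0.36, SE 0.37), followed by Rfc5 (0.30), Rfc4 (0.27) and Rfc3 (0.09).

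In single-strand binding and Okazaki joining, Lig1 had the largest log2 change of the 4 genes. Lig1 (ENSMUSG00000056394, chr7:13277283-13311433, plus strand), the ligase that seals Okazaki fragments, was at 4360.4, 1509 and 1526 in controls against 4869, 3946 and 2858 in knockdowns. Controls 2 and 3 were the 2 lowest libraries by a wide margin. Its log2 change was 0.82 (SE 0.45, limma adjusted p = 0.744), and it rose in DESeq2 with the replicate term (SE 0.26, adjusted p = 0.0315). Rpa1 and Rpa2, subunits of the single-strand binding protein, had log2 changes of 0.29 (SE 0.51) and 0.38 (SE 0.41). Rpa1 was at 4785, 1539 and 1624 in controls against 4641, 2177 and 2162 in knockdowns, and Rpa2 at 1687, 735 and 724 against 1878, 1062 and 989. Fen1, the flap nuclease, was at 417, 148 and 193 in controls against 479, 204 and 222 in knockdowns (0.29, SE 0.50). The library kit did not mark strand, and 78.8% of the exon bases of Fen1 lie opposite the antisense gene Gm10143, so their reads cannot be told apart.

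**Figure D3:**
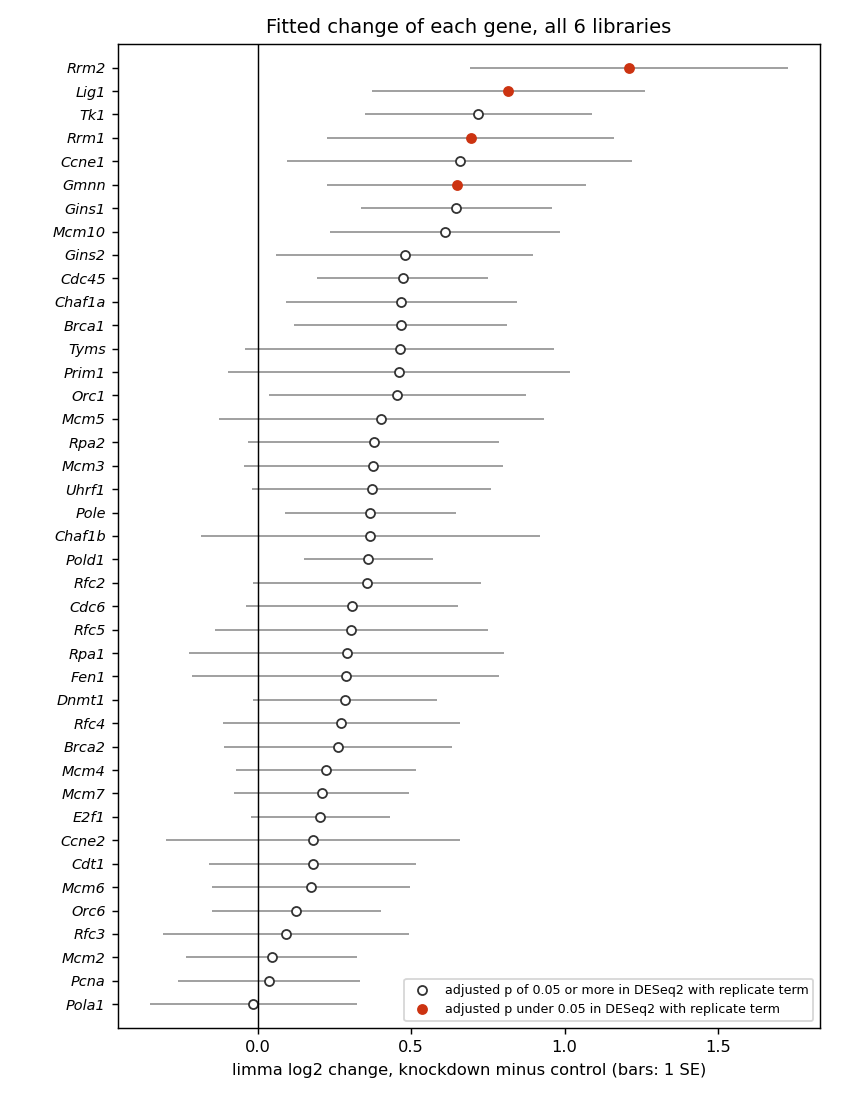
limma log2 change of each of the 41 genes over all 6 libraries, knockdown minus control, sorted by size, with bars of 1 SE. Filled red points are the 4 genes called by DESeq2 with the replicate term (Rrm2, Lig1, Rrm1 and Gmnn), and 40 of the 41 points lie to the right of 0.

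Of the G1/S regulators, E2f1, the E2F factor that activates this programme, was at 1691, 1438 and 1303 in controls against 2017, 1871 and 1284 in knockdowns (log2 change 0.20, SE 0.23). It varied little between libraries compared with the replication genes. Ccne1, cyclin E1, was at 1044, 325 and 325 in controls against 1351, 592 and 543 in knockdowns (0.66, SE 0.56), with an adjusted p of 0.0509 in DESeq2 with the replicate term. Ccne2, cyclin E2, was at 572, 175 and 257 in controls against 427, 233 and 375 in knockdowns (0.18, SE 0.48), lower in knockdown 1 than in control 1.

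Genes that copy chromatin had a median log2 change of 0.37, and pair medians of -0.01, 0.78 and 0.39. Chaf1a, the large subunit of chromatin assembly factor 1, was at 2512, 1130.1 and 1182 in controls against 2878, 1997 and 1546 in knockdowns (0.47, SE 0.38). Of its exon bases 52.5% lie opposite Ubxn6. Dnmt1, the maintenance DNA methyltransferase and the most abundant of the 4 per kilobase, was at 6432, 3266 and 3306 in controls against 6032, 4573 and 4556 in knockdowns (0.29, SE 0.30). Uhrf1, which guides Dnmt1 to newly copied DNA, and Chaf1b both had a log2 change of 0.37. Brca1 and Brca2, which protect forks and repair breaks by recombination, had log2 changes of 0.47 (SE 0.35) and 0.26 (SE 0.37). Brca1 was at 1114, 463 and 531 in controls against 996, 821 and 883 in knockdowns. Brca2 was the least abundant of the 41 per kilobase (19.7), at 366, 191 and 184 in controls against 394, 239.6 and 236 in knockdowns.

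Partner genes in the same library can be compared without any scaling between libraries. The 5 partner ratios given here were chosen after their values were seen and carry no test. The ratio of Rrm2 to Rrm1 normalised counts was 1.04, 0.86 and 0.87 in controls against 1.11, 1.19 and 1.73 in knockdowns, so all 3 knockdowns lay above all 3 controls. The ratio of Cdt1 to its inhibitor Gmnn was 1.54, 2.05 and 2.07 in controls against 1.38, 1.19 and 1.49 in knockdowns, so all 3 knockdowns lay below. That separation was narrow, since control 1 (1.54) and knockdown 3 (1.49) were close. How many other gene pairs separate in this way was not counted. For the other 3 ratios the groups overlapped. Ccne1 to Ccne2 was 1.27 to 1.86 in controls against 1.45 to 3.16 in knockdowns, Chaf1a to Chaf1b 1.58 to 2.33 and 1.73 to 2.48, and Brca1 to Brca2 2.43 to 3.04 and 2.53 to 3.74. Against the median of the 41 genes in each library, 0 genes were higher in all knockdowns than in all controls (1.69% of all genes) and 4 were lower (5.84%). These were Cdt1, Mcm6, Pcna and Rfc3.

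**Figure D4:**
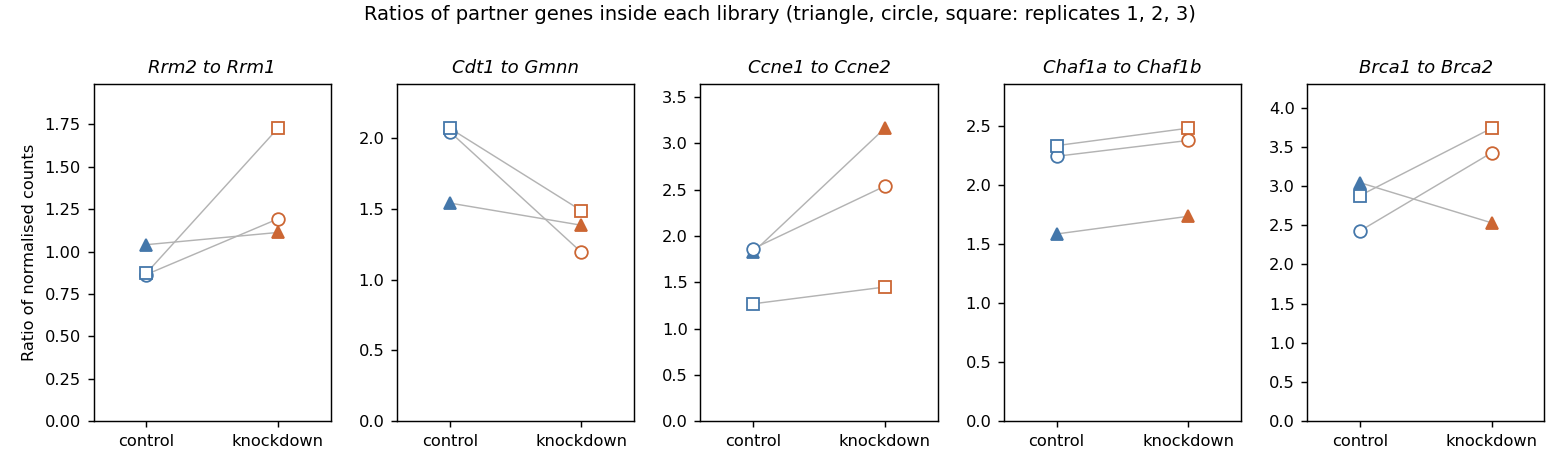
Ratios of normalised counts of 5 pairs of partner genes inside each library, on axes that start at 0, with triangles, circles and squares for replicates 1, 2 and 3. The groups do not overlap for Rrm2 to Rrm1, which is higher in the knockdowns, or for Cdt1 to Gmnn, which is lower, and they overlap for the other 3. The 5 ratios were chosen after their values were seen and carry no test.

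Other genes of the pathway were taken as lists and described by their counts and medians. limma called none of them over all 6 libraries. Of 40 other replication factors, 32 had a positive log2 change and the median was 0.24, with pair medians of 0.01, 0.28 and 0.42. DESeq2 with the replicate term called 1 of these higher, Pclaf (0.88, adjusted p = 0.0287), a PCNA-binding factor, against 4.73% of all genes, and 0 lower, against 2.71%. The call of Pclaf was lost without pair 2 (0.986) and without pair 3 (0.508). The histone chaperone Asf1b had a log2 change of 0.74, and at the other end Rfc1, the large subunit of the clamp loader, and Orc2 had -0.17 and -0.15.

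In 16 further nucleotide metabolism genes the median log2 change was -0.07, with pair medians of -0.06, -0.21 and -0.13, and 7 were positive. The list holds de novo purine, pyrimidine and folate enzymes. It also holds the salvage kinases Dck and Tk2, the nucleotide hydrolases Dut, Dctpp1 and Samhd1, and the reductase subunit Rrm2b. Paics, a purine synthesis enzyme, was at 8403, 11218 and 13033 in controls against 7858, 6333 and 7783 in knockdowns, all 3 knockdowns below all 3 controls (-0.56, SE 0.21, limma adjusted p = 0.668). Gart, of the same pathway, likewise did not overlap (-0.46), against 5.44% of all genes lower without overlap. Ctps, which makes CTP, had a log2 change of -0.50. Dck, deoxycytidine kinase, had a log2 change of 0.27. DESeq2 with the replicate term called 0 of the 16.

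The 22 checkpoint and repair genes had a median of 0.29, with pair medians of -0.09, 0.40 and 0.39, and 21 were positive. Fanca (0.82) and Brip1 (0.81), both of the Fanconi anaemia pathway, had the largest values. DESeq2 with the replicate term called 0 of them. Among 28 G1/S control genes the median was 0.17, with pair medians of -0.13, 0.16 and 0.20. Of these, 17 were positive (60.7%, against 50.3% of all tested genes). DESeq2 with the replicate term called E2f2 and Ccna2 of this list higher (4.73% of all genes) and Ccnd1 lower (2.71%). E2f2, another activating E2F, was at 560.1, 63.2 and 95.9 in controls against 922, 431 and 588 in knockdowns. Control 1 was again far above the other controls (log2 change 2.02, limma adjusted p = 0.668, 1.05e-04 in DESeq2 with the replicate term). Cyclin A2 (Ccna2) had a log2 change of 1.21 (0.012 in DESeq2) and cyclin D1 (Ccnd1) of -0.49 (0.0404). The DESeq2 call of E2f2 was lost without pair 3 (adjusted p = 0.0912) and held without pair 2 (0.0414). That of Ccna2 was lost without pair 2 (0.64) and without pair 3 (0.433), and that of Ccnd1 without pairs 1, 2 and 3 in turn (0.115, 0.749 and 0.747). Tfdp2, a dimer partner of E2F, had -0.50.

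The 25 mitotic genes of the comparison list showed the same order of pairs with larger differences. Their median log2 change was 0.95, the pair medians were 0.01, 1.502 and 1.29, and 25 of 25 were positive. DESeq2 with the replicate term called 15 of 25 higher, against 4 of 41 replication genes and 4.73% of all genes. It called 25 of 25 without pair 1 and 0 without pair 2 or without pair 3, and limma and edgeR with the replicate term called 0. The largest changes were in Plk1 (1.29, adjusted p = 0.00733), a mitotic kinase, and Cdc20 (1.27, adjusted p = 0.0063), the activator of the anaphase-promoting complex, and the smallest in Kif23 (0.52) and Bub1 (0.54). The difference between the 2 lists was not tested.

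**Figure D5:**
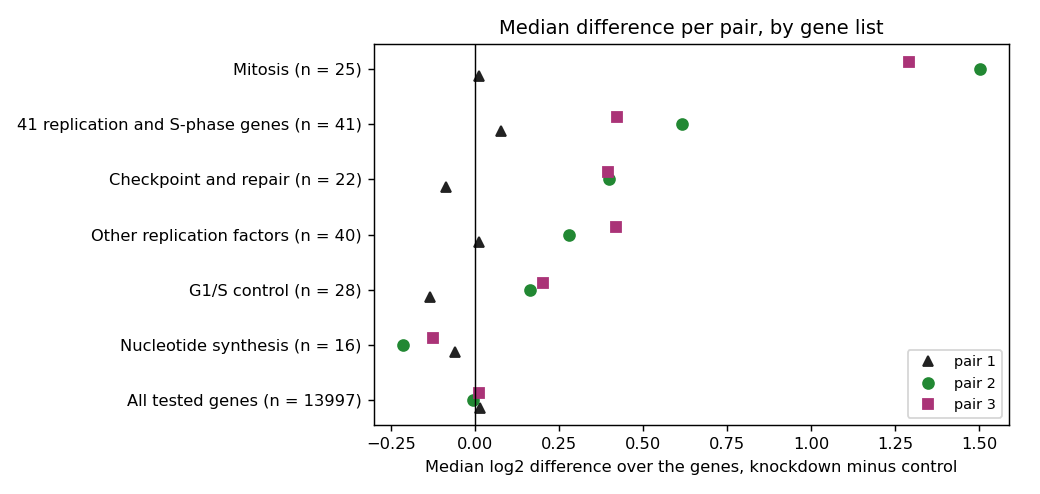
Median log2 difference between knockdown and control in each pair, for the 41 genes, the 5 pathway lists and all tested genes, with the number of genes of each in brackets. Pair 1 medians lie between -0.13 and 0.08, those of pairs 2 and 3 are higher for 4 of the 5 lists and for the 41 genes, and the further nucleotide metabolism genes lie below 0 in all 3 pairs.

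Genes with and without an E2F-type word overlapped in their change. The median log2 change was 0.30 over the 14 genes with a word and 0.42 over the 20 genes that had a window and no word, and the values ran from -0.01 to 0.82 and from 0.04 to 1.21. Among the windows printed above, those of Mcm5 (0.40), Mcm6 (0.17) and Pola1 (-0.01) hold the word, and those of Rrm1 (0.69), Rrm2 (1.21) and Tk1 (0.72) do not. The printed windows were picked by hand, and their clean separation is not seen over all 34 genes, where the ranges overlapped. Lig1 (0.82) held the word in a window, and Pcna (0.04) and Mcm2 (0.05) had a window without it. Rrm1 and Rrm2 held CCAAT words, at -91 and -45 and at -50, and Tk1 held none in this window.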

How the data were processed

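RNA sequencing libraries of 3 control and 3 Jag1 knockdown organoid samples were compared, grouped by their titles. The series describes the 3 samples of a group as biological replicates, and p-values measure only the spread among these samples. Per the submitters' processing notes, the build was GRCm38 and the tools were Trimmomatic, DESeq2 1.32.0 and STAR 2.5.2b, and the counting tool and annotation are not given in the sources used here. The deposited values are a signal, normalised counts, which the authors made by dividing reads by 1 size factor per library. 100% of the values came out as whole reads within a tolerance of 0.001. The 6 deposited tables were identical and 5 copies were left out. The table holds 14302 features, 48 of them ERCC spike-ins, and no listed feature had fewer than 61 reads in total. Symbols and positions came from GENCODE M21, and promoter windows from RefSeq.

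limma-trend (limma 3.58.1, R 4.3.3) was run on log2(normalised count + 1) for 13997 genes with at least 10 normalised counts in at least 3 samples. Benjamini-Hochberg adjustment ran over all of them, with a threshold of 0.05. 257 genes were filtered out. edgeR 4.0.16 (quasi-likelihood) and DESeq2 1.42.0 on the recovered reads, other scalings, filters and pseudocounts, and fits without single libraries were alternatives. The count tests' calls stand beside the main ones because the values are normalised. For DESeq2, shares of all genes are over the genes that were given an adjusted p. These were 13922 without the replicate term and 13454 with it. With the term and without pairs 1, 2 and 3 in turn they were 13454, 12368 and 13182. Scripts were tested on simulated data. Same-numbered samples deviated together (r = 0.68, 0.57 and 0.44 against a threshold of 0.1), so the numbers were treated as pairs. Pairs 2 and 3 with their knockdowns swapped also passed (r = 0.385 for control 3 and r = 0.365 for control 2). Deviations cancel out within a group, so with replicate 1 apart this check could not decide how replicates 2 and 3 pair. The pairing was read from the same values that the fits with a replicate term used. The 41 genes, the roles and the lists were chosen with earlier results of these data known. In each role, values per library are given at least for the genes with the largest and smallest limma change and the highest level per kilobase, and from each list the 2 largest and 2 smallest changes whose higher group averaged 50 or more are named, together with genes called by DESeq2 with the replicate term. Some genes that this rule names are not reported here. Mcm5, Mcm10 and Gart were named after their values were seen.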

Additional observations from a re-analysis of the deposited data

How the results depend on the processing

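Over 820 combinations of gene and alternative, 35 reversed the sign of a change, in 13 of the 41 genes, and 28 genes kept their sign throughout. With the replicate block, limma and edgeR called 0 of the 41 genes and 2 of all genes, and DESeq2 called 4 of the 41 and 1000 of all genes (174 of all genes and 0 of the 41 without it). With the block and without pairs 1, 2 and 3 in turn, DESeq2 called 12, 0 and 0 of the 41 and 2178, 100 and 128 of all genes. limma called 9 of the 41 and 1346 of all genes on replicates 2 and 3 only, and 116 of all genes with spike-in scaling. Leaving out single libraries gave 0 to 2 of the 41 and 0 to 294 of all genes, and a median change of 0.10 (without knockdown 1) to 0.77 (without control 1). Jag1 passed in DESeq2 with the block (-1.02) and also without pair 1 (-1.10), but not without pair 2 or pair 3. Reversed with spike-in scaling were Orc6 (-0.054), Cdt1 (-0.0015), Mcm2 (-0.13), Mcm6 (-0.0058), Pcna (-0.14) and Rfc3 (-0.088). Reversed in DESeq2 with the block and without pair 2 were Mcm2 (-0.0064), Pola1 (0.033), Pcna (-0.073) and Rfc3 (-0.0013), without pair 1 Pola1 (0.17), without pair 3 Ccne2 (-0.012), and on replicates 2 and 3 only Pola1 (0.16). Leaving out single libraries gave ranges of -0.054 to 0.37 for Orc6, -0.093 to 0.48 for Cdt1, -0.15 to 0.29 for Mcm2, -0.10 to 0.43 for Mcm6, -0.013 to 0.44 for Mcm7, -0.20 to 0.29 for Pola1, -0.16 to 0.31 for Pcna, -0.21 to 0.45 for Rfc3, -0.029 to 0.74 for Rfc5, -0.076 to 0.82 for Rpa1, -0.10 to 0.72 for Fen1, -0.20 to 0.66 for Ccne2 and -0.032 to 0.92 for Chaf1b. The cause of these moves was not tested. Each group had 3 libraries of 1 line, the knockdown used 1 hairpin, and no alternative varied read depth.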

Other observations

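A protein-coding neighbour transcribed in the opposite direction starts within 1000 bases of the start of 6 of the 41 genes. Pole lies 120 bases from Pxmp2, and both had positive log2 changes (0.37 and 0.52). Gins1 lies 659 bases from Abhd12, and the values were 0.65 and -0.32. Brca1 lies 194 bases from Nbr1 (0.47 and -0.13), and Rpa1 109 bases from Smyd4 (0.29 and -0.16). Mcm4 lies 466 bases from Prkdc (0.22 and -0.02). The neighbour of Orc1, Prpf38a, is 87 bases away and had a log2 change of 0.12. These are limma log2 changes over all 6 libraries, and none of the 6 genes passed the limma test. Beyond Fen1 and Chaf1a, exons of Gins2 overlap those of Gse1 on the opposite strand over 67.3% of their bases, those of Ccne2 overlap Ints8 over 17.4%, those of Rfc2 overlap Lat2 over 15.1% and those of Rfc4 overlap Eif4a2 over 12.7%, so the counts of these genes are uncertain without strand.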
